A study of Mus musculus with 8 samples.

Results

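A set of 30 listed genes of hepatic glucose and glycogen metabolism was examined in the liver of fat-fed mice, with or without betaine. The genes were chosen by name for their place in these pathways, and all 30 were found among the 24079 gene symbols that both assays list. They comprise 6 genes placed in glycolysis (4 enzymes and the regulators Gckr and Pfkfb1), 6 of steps taken in gluconeogenesis, 9 of steps that both directions share, 7 of glycogen metabolism, and 2 of glucose transport and fructose entry. All mice were C57BL/6, given as male in the study's methods, without a stated genetic modification, and all received a diet with 45% of its energy from fat from week 8. The HF group (M group in the study's text) received no betaine, and the HB group (B group) received 2% (w/v) betaine in the drinking water. The labels give an age of 25 weeks, which leaves a span of 17 weeks from week 8 and matches the feeding time in the methods, while a treatment note among the labels gives 25 weeks of feeding. RNA-seq measured mRNA, and Ribo-seq measured ribosome-protected fragments (RPFs), the footprints of translating ribosomes that survive nuclease digestion. Each assay had 2 libraries per group. The methods state that the 2 mice nearest to the mean body weight were sequenced, while the sample descriptions speak of pooled RNA preparations, so the replicates are counted as libraries. The p-values therefore measure the spread between libraries. Mice on a standard diet were not analysed here, so the values compare betaine with no betaine under fat feeding only.

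Glycolysis splits glucose to pyruvate, and gluconeogenesis rebuilds glucose from lactate, amino acids and glycerol during fasting. Both routes share their reversible middle steps and differ at the irreversible ones, where phosphofructokinase and pyruvate kinase face fructose-1,6-bisphosphatase, pyruvate carboxylase and phosphoenolpyruvate carboxykinase. The liver runs both routes, stores glucose as glycogen after a meal, and releases it again through glucose-6-phosphatase, which makes it the main organ that exports glucose.

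The values were RPKM, read numbers corrected for the length of the gene and the size of the library. The libraries held 11661207 to 22543471 reads on genes in RNA-seq and 141890 to 1056546 in Ribo-seq, a span of 1.93 and 7.45 times. Both HB Ribo-seq libraries were below both HF ones. In RNA-seq both HB libraries (22543471 and 18082687) were above both HF ones (11661207 and 11824128). The members held 3037 and 10255 RPF reads in the HF libraries and 1956 and 903 in the HB libraries, and 11 members had fewer than 10 RPF reads in the second HB library. The 8 hepatocyte markers were above 0 in every library of both assays, with a summed mRNA level of 44537 to 50142 RPKM. Of 4 nuclear RNAs, Neat1 and Snhg11 were called lower in HB mRNA, and the list summed to 143 and 169.9 RPKM (HF) against 118 and 96.0 (HB). In RPF the same list summed to 1387 and 976 RPKM (HF) against 325 and 350 (HB), where Neat1 was called lower. As such nuclear RNAs carry reads here, not every Ribo-seq read is a footprint of a translating ribosome. The Kupffer cell and macrophage list summed to 115 and 135 RPKM (HF) and 176 and 155 RPKM (HB) in mRNA, with Lyz2 called higher while Clec4f had 72.6 and 64.4 in HF and 48.9 and 49.6 in HB. In RPF it summed to 223 and 179.7 (HF) and 244 and 107 (HB), where Cd68, at 4 and 6 reads in HF and 0 in both HB libraries, was too low to read. The endothelial list was at 138 and 113 RPKM (HF) and 121 and 68.3 (HB) in RPF, with Stab2 and Pecam1 (2 and 1 reads in HB) called lower, and at 59.9 and 68.7 (HF) and 58.0 and 67.7 (HB) in mRNA. The stellate and fibroblast list was at 35.4 and 33.97 (HF) and 71.7 and 43.5 (HB) in mRNA and at 144 and 117 (HF) and 97.0 and 89.8 (HB) in RPF. The erythroid list, in which Hbb-bs was called higher, summed to 675 and 523 RPKM (HF) and 738 and 2249 RPKM (HB) in mRNA and to 1109 and 617 (HF) and 2559 and 381 (HB) in RPF, and the part of these shifts in the results was not tested. In bulk liver, fewer cells of a type and less RNA per cell cannot be told apart.

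In mRNA, 5 of the 9 genes of the shared middle steps rose with betaine, as did Fbp1 of gluconeogenesis, Ldha, whose reversible lactate step was grouped with glycolysis, and Gbe1 of glycogen synthesis, while Eno3 fell. Fold changes are HB over HF on the log2(RPKM + 1) scale, with their standard error (SE). A gene was called at a size above 1 and an unadjusted limma p below 0.001, the thresholds of the study. By this rule 8 of the 30 members were called higher (Eno1, Fbp1, Gbe1, Tpi1, Ldha, Pgk1, Aldoc and Pgam1), 1 was called lower (Eno3), and 21 were not called. Among all 10687 genes tested, 2.3% were called higher and 6.56% lower. At an adjusted p under 0.05 with the same fold change, 9 members were higher, the ninth being Pklr, and 1 was lower, against 5.01% higher and 12.7% lower of all genes. Both HB libraries lay above both HF libraries in 16 members and below them in 7, where these shares were 24.8% and 43.3% over all genes. The median log2 fold change was 0.50 over the members and -0.19 over all genes. Shifting the libraries to a common median turned the split of all genes from 246 higher and 701 lower into 540 higher and 291 lower, and the members stayed at 8 higher and 1 lower.

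Among the shared steps, 5 of 9 genes were called higher and 1 lower, and the median log2 fold change was 1.27. Eno1 (alpha-enolase, which forms phosphoenolpyruvate, chr4:150236721-150248879 on GRCm38) had an RPKM of 55.9 and 60.9 in the HF libraries and 287 and 252 in the HB libraries. The HB libraries stood far above the HF libraries, and both groups were narrow (log2 fold change 2.19, SE 0.25, adjusted p = 0.00493, limma). Tpi1 (chr6:124810586-124814296), the triose phosphate isomerase that interconverts the triose phosphates, had 72.6 and 67.9 in HF and 282 and 225 in HB (log2 fold change 1.83, SE 0.26, adjusted p = 0.00525, limma). For Pgk1 (chrX:106187100-106203699), the phosphoglycerate kinase of the first ATP-forming step, the values were 40.1 and 39.0 in HF and 184 and 105 in HB, so the groups were apart although the HB libraries differed between themselves (log2 fold change 1.79, SE 0.30, adjusted p = 0.00599, limma). Pgam1, the phosphoglycerate mutase (chr19:41911923-41918660), had 38.1 and 37.5 in HF and 109.9 and 77.5 in HB (log2 fold change 1.27, SE 0.27, adjusted p = 0.0106, limma). Its call was the least firm of the 8: it was lost under 7 of the alternatives, with a log2 fold change of 1.02 without the first HB library. Aldoc, an aldolase best known from brain (chr11:78322968-78327781), was low everywhere, with 0.536 and 0.622 in HF and 3.49 and 2.24 in HB, and was called higher (log2 fold change 1.27, SE 0.25, adjusted p = 0.00883, limma), a call lost without the first HB library.

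Eno3 (beta-enolase, the enolase typical of skeletal muscle, chr11:70657202-70662513) went the other way, with an RPKM of 24.7 and 20.3 in HF and 3.78 and 8.07 in HB. Both HB libraries lay well below both HF libraries (log2 fold change -1.83, SE 0.33, adjusted p = 0.00666, limma). Of the 6 skeletal muscle markers, Ckm, Myh4 and Myh1 were at 0 in all RNA-seq libraries and the list summed to 1.32 and 1.51 RPKM in HF and to 0.816 and 0.848 in HB, near 0 in both groups. In RPF, Acta1 was the only one of them above 0, with 21 and 39 reads in HF and 12 and 2 in HB. The Eno1 to Eno3 ratio was 2.26 and 3.0 in the HF libraries and 76.0 and 31.2 in the HB libraries.

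The other shared steps were not called. Gapdh, the glyceraldehyde-3-phosphate dehydrogenase, was the most abundant of them, with 1046 and 1033 in HF and 1626 and 1897 in HB, groups that did not overlap (log2 fold change 0.76, SE 0.29, adjusted p = 0.0796, limma). Gpi1, the glucose-6-phosphate isomerase, had 68.1 and 56.7 in HF and 86.6 and 90.6 in HB (log2 fold change 0.50, SE 0.25, adjusted p = 0.161, limma). Aldoa, the aldolase of muscle and of most other tissues, had 159.9 and 127 in HF and 85.0 and 112 in HB, with both HB libraries below both HF libraries (log2 fold change -0.54, SE 0.27, adjusted p = 0.165, limma). In each of these 3 genes the groups were apart by less than 2-fold.

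Among the genes placed in glycolysis, 1 of 6 was called and the median log2 fold change was 0.0066. Ldha, the lactate dehydrogenase subunit that interconverts pyruvate and lactate (chr7:46841475-46855627), had 195 and 169.5 in HF and 659 and 606 in HB, about 3.47 times as much in HB (log2 fold change 1.79, SE 0.27, adjusted p = 0.00525, limma). Pklr, the liver pyruvate kinase (chr3:89136142-89146784), had 30.5 and 49.5 in HF and 220.4 and 73.3 in HB, with the first HB library 3.01 times the second (log2 fold change 1.69, SE 0.46, adjusted p = 0.0257, limma). Its log2 fold change was 0.90 without that library and 2.47 without the second HB library, so 1 library set its size. Pfkl, the liver phosphofructokinase, had 13.8 and 8.51 in HF and 11.8 and 14.5 in HB, overlapping groups (log2 fold change 0.25, SE 0.29, adjusted p = 0.54, limma). Pkm, the pyruvate kinase of most other tissues and of blood-derived cells, had 13.6 and 8.1 in HF and 8.06 and 9.55 in HB, also overlapping. Gckr, which holds glucokinase inactive in the nucleus, had 153 and 157 in HF and 104 and 83.9 in HB, and the HB libraries were the lower ones (log2 fold change -0.72, SE 0.26, adjusted p = 0.0631, limma). Pfkfb1, the liver enzyme that makes and removes fructose-2,6-bisphosphate, had 47.1 and 37.4 in HF and 33.3 and 27.2 in HB (log2 fold change -0.46, SE 0.26, adjusted p = 0.207, limma).

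Among the genes of gluconeogenesis, again 1 of 6 was called, and the median was -0.067. Fbp1, the fructose-1,6-bisphosphatase that opposes phosphofructokinase (chr13:62864753-62888282), had the largest mRNA change of all members, with an RPKM of 80.9 and 91.9 in HF and 837 and 435 in HB. Both HB libraries were several times above the HF libraries, although they differed from each other by 1.92-fold (log2 fold change 2.79, SE 0.34, adjusted p = 0.0051, limma). Pck1, the cytosolic phosphoenolpyruvate carboxykinase and the member with the highest mRNA RPKM in both HF libraries, had 2252 and 1435 in HF and 1157 and 2107 in HB, and its groups overlapped (log2 fold change -0.20, SE 0.38, adjusted p = 0.716, limma). G6pc, the catalytic subunit of glucose-6-phosphatase, had 304 and 105 in HF and 90.5 and 123 in HB. The first HF library alone was high, and the groups overlapped (log2 fold change -0.76, SE 0.44, adjusted p = 0.219, limma). Its log2 fold change was -1.52 without the second HF library, which passed the call, and 0.00097 without the first, so it rested on 1 library. Pcx, the pyruvate carboxylase that feeds oxaloacetate to the pathway, had 119 and 86.3 in HF and 152 and 137 in HB (log2 fold change 0.50, SE 0.27, adjusted p = 0.19, limma). Slc37a4, which carries glucose-6-phosphate into the endoplasmic reticulum, had 74.9 and 73.0 in HF and 93.9 and 64.3 in HB, overlapping groups. Pck2, the mitochondrial carboxykinase, was near the filter with 1.99 and 1.87 in HF and 1.1 and 1.11 in HB (log2 fold change -0.48, SE 0.23, adjusted p = 0.143, limma).

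Of the 7 glycogen genes, 1 was called, and the median log2 fold change was 0.75. Gbe1, the branching enzyme (chr16:70313949-70569716), had an RPKM of 7.03 and 6.28 in HF and 55.1 and 18.2 in HB. The HB libraries were both higher but 3.02-fold apart (log2 fold change 2.10, SE 0.43, adjusted p = 0.00931, limma). Its log2 fold change was 1.33 without the first HB library and 2.87 without the second, and the call held in both cases. Pygl, the liver glycogen phosphorylase that releases glucose-1-phosphate, had 50.1 and 55.5 in HF and 179 and 70.2 in HB (log2 fold change 1.07, SE 0.39, adjusted p = 0.0676, limma). Ugp2, which makes the UDP-glucose that glycogen synthase consumes, had 47.8 and 63.3 in HF and 159.7 and 54.6 in HB (log2 fold change 0.75, SE 0.43, adjusted p = 0.219, limma). In both genes only the first HB library stood clearly above the HF libraries. Without the second HB library Pygl and Ugp2 were called (1.74 and 1.52), and without the first their log2 fold changes were 0.41 and -0.012. Gys2, the liver glycogen synthase, had 57.2 and 73.9 in HF and 94.0 and 82.6 in HB (log2 fold change 0.43, SE 0.26, adjusted p = 0.24, limma). Gyg, the glycogenin that primes the chain, had 1.45 and 1.77 in HF and 4.23 and 3.08 in HB (log2 fold change 0.83, SE 0.25, adjusted p = 0.0366, limma). The regulators lay on the other side: Ppp1r3b, a subunit that brings protein phosphatase to glycogen in liver, had 133 and 119.6 in HF and 76.8 and 62.0 in HB (log2 fold change -0.86, SE 0.26, adjusted p = 0.0356, limma). Ppp1r3c, a related targeting subunit, had 49.4 and 12.9 in HF and 7.82 and 10.3 in HB, with the first HF library 3.84 times the second (log2 fold change -1.41, SE 0.49, adjusted p = 0.0596, limma). Without the second HF library its log2 fold change was -2.34 and passed the call, and without the first it was -0.48.

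The glucose transporter of the hepatocyte surface, Slc2a2 (GLUT2), had 52.8 and 64.1 in HF and 96.9 and 50.4 in HB, overlapping groups (log2 fold change 0.26, SE 0.33, adjusted p = 0.578, limma). Khk, the ketohexokinase that admits fructose to the pathway, had 226 and 294 in HF and 523 and 452 in HB, groups that did not overlap (log2 fold change 0.91, SE 0.28, adjusted p = 0.0378, limma). Over the 30 members the first HB library was above the second in 20, which includes all 8 called higher.

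**Figure D1:**
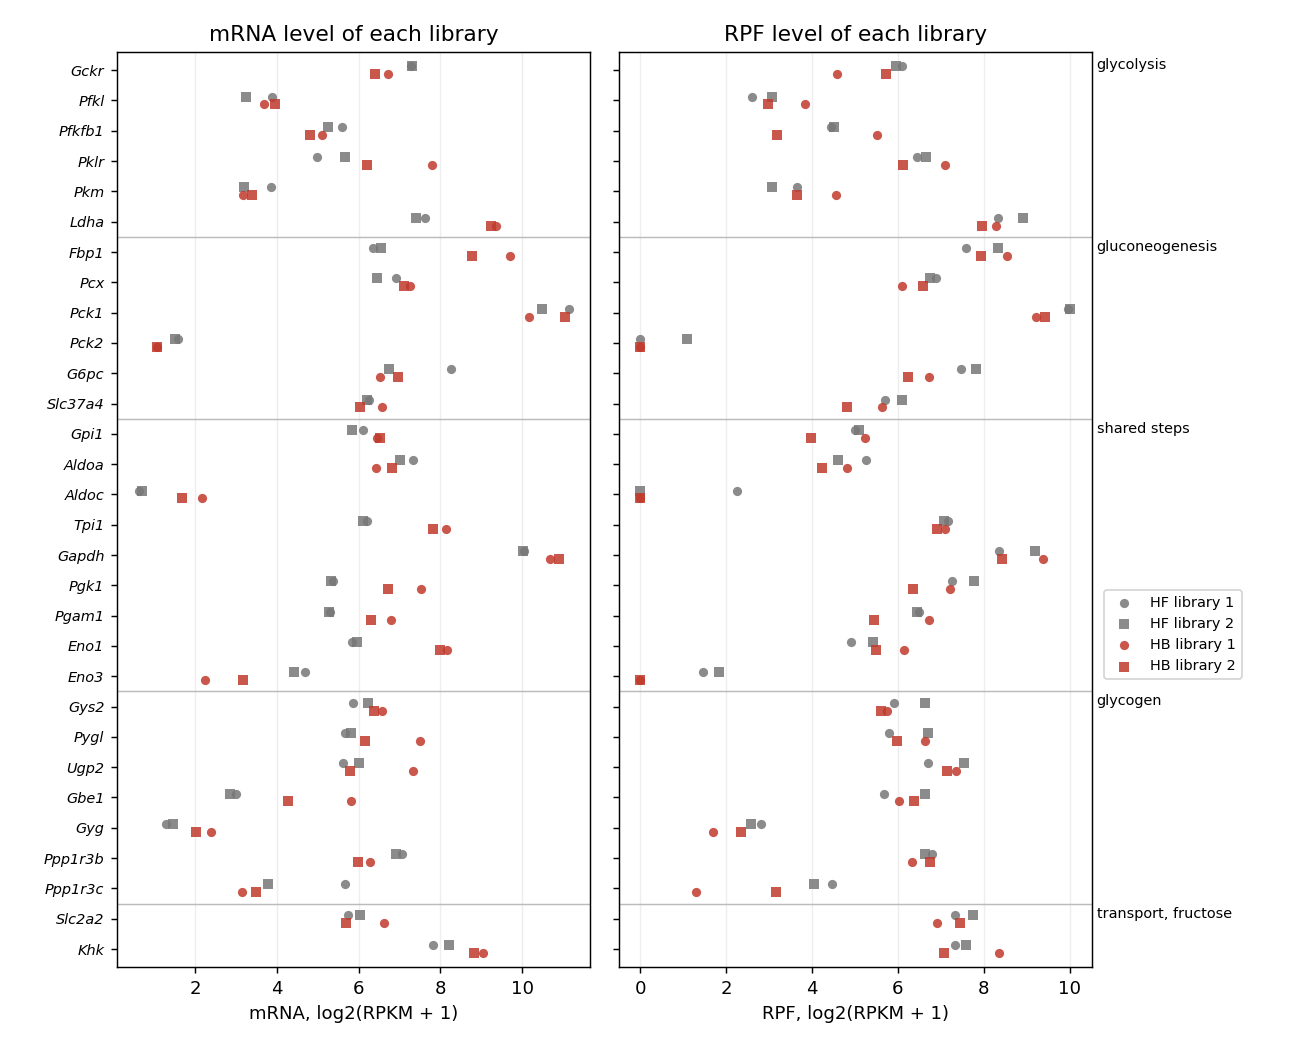
Level of each member in each library as log2(RPKM + 1), for mRNA (left) and RPF (right); grey marks HF and red marks HB, circles the first and squares the second library, and lines part the role groups. In mRNA the HB points of Fbp1, Tpi1, Ldha, Pgk1 and Eno1 sit to the right of the HF points and those of Eno3 to the left, while in RPF most groups overlap.

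Reads of several members can be shared with near-identical copies. Of all 28-base stretches of the annotated transcript, the length of a footprint, 78.0% of those of Eno1 also occur in another gene, and 76.35% occur in the single gene Eno1b, a near-identical copy. Eno1b had an mRNA RPKM of 54.7 and 51.8 in HF and 207 and 127 in HB, and it was called higher as well (log2 fold change 1.59, SE 0.29, adjusted p = 0.00732, limma). With both entries summed, the log2 fold change of mRNA was 1.95 (adjusted p = 0.00523, limma) and that of RPF 0.18, so the mRNA call did not rest on how the reads were split between them. The share of 28-base stretches found elsewhere was 84.4% for Gapdh, 68.4% for Pgk1, 52.1% for Pkm, 42.2% for Pgam1, 38.8% for Aldoa, 36.7% for Ldha, 34.8% for Gpi1 and 20.5% for Tpi1, which leaves their levels uncertain. For 50-base stretches it was 82.5% for Gapdh, 72.2% for Eno1, 67.96% for Pgk1, 41.5% for Pgam1 and 30.5% for Pkm, and 7.51% (Tpi1) to 19.3% (Gpi1) for the other 4. The 28-base share was 0 for Fbp1, Gbe1 and Aldoc, which are 3 of the 8 members called higher, and for 12 of the 30 members in all. Exons of 9 members overlap those of another gene, among them Tpi1 with Spsb2 and Pklr with Hcn3, and the library kit named in the methods is not stated to keep the strand. By length, all genes of 1 to 2 kb had a median mRNA log2 fold change of 0.022 and those over 4 kb one of -0.40. The 11 members of 1 to 2 kb had a median of 1.27 and the 13 of 2 to 3 kb one of 0.43, the latter beside -0.19 for all genes of that length, and the part of length was not tested.

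Promoter sequences are shown for 6 genes with calls. Ldha, Pgk1, Fbp1 and Gbe1 were called higher in mRNA and lower in translation efficiency. Eno3 was called lower in mRNA and G6pc in RPF. Each is the first listed RefSeq window of the gene on GRCm38.p6, 250 bases before to 50 after a transcript start, written 5′ to 3′ along the gene. Capitals mark matches, on either strand, to the E-box CACGTG, the cyclic AMP element TGACGTCA, the TATA box TATAAA, the GC box GGGCGG and the hypoxia element core ACGTG, which is also contained in the E-box. The windows lie at chr7:46845554-46845853, plus strand (Ldha), chrX:106186850-106187149, plus strand (Pgk1), chr13:62888233-62888532, minus strand (Fbp1), chr16:70313699-70313998, plus strand (Gbe1), chr11:70656926-70657225, plus strand (Eno3) and chr11:101367466-101367765, plus strand (G6pc).
Ldha: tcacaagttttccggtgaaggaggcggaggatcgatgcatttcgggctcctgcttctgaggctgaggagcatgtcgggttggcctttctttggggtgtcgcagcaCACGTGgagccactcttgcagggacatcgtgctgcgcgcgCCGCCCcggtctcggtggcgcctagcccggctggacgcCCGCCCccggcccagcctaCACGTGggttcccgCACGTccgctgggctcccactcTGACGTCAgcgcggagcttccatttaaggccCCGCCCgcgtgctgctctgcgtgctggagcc
Pgk1: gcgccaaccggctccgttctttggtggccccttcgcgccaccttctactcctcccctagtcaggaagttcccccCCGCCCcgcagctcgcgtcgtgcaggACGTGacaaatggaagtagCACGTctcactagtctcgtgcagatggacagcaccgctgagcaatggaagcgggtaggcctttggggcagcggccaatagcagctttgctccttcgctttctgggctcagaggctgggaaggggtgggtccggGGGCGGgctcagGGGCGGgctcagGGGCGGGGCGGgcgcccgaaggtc
Fbp1: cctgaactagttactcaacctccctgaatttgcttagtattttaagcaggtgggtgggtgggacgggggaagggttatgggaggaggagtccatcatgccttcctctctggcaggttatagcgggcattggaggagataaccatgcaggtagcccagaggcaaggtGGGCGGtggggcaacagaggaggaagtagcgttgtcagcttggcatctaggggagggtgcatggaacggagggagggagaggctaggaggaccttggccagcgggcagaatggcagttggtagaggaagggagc
Gbe1: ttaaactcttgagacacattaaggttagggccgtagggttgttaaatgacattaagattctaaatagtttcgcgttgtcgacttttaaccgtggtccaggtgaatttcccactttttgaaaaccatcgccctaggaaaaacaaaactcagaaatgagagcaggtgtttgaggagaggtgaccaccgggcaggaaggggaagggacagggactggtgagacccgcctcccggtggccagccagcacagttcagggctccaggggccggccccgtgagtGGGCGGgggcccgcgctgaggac
Eno3: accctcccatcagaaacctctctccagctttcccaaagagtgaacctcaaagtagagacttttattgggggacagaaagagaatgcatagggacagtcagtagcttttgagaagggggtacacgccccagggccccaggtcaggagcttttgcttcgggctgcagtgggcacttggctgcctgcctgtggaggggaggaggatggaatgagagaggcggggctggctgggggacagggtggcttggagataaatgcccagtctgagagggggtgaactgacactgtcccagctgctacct
G6pc: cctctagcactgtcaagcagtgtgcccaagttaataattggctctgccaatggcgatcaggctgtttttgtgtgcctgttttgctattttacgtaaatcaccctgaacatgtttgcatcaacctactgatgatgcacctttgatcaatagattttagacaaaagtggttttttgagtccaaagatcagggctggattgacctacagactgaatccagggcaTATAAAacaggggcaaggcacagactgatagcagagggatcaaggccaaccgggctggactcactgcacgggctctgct

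Ldha held the E-box at -145 and -48 from the start, the cyclic AMP element at -12 and GC boxes at -105, -67 and 20. It also held the ACGTG core outside an E-box, on the other strand, at -34. Pgk1 held the ACGTG core at -150 and, on the other strand, at -131, with GC boxes at -176, 3, 15, 27 and 32. Fbp1 and Gbe1 held 1 GC box each, at -84 and 28, G6pc held the TATA box at -29, and the Eno3 window held none of these letters. RefSeq gave 43 windows for 28 of the 30 members. The GC box was in 58.1% of the member windows and in 35.7% of all 32851 windows, and by gene it was in at least 1 window of 21 of the 28 members, the 8 called higher among them, and of 38.2% of all 27025 genes. ACGTG was in 32.6% of member windows against 19.6%, with Aldoc, Ldha, Pgam1 and Pgk1 among those called higher. The E-box was in 11.6% against 7.15%, the cyclic AMP element in 2.33% against 1.79%, and the TATA box in 9.30% against 13.6%, with none of the 8 holding the latter. These matches describe letters in a window and not bound sites.

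In footprints, none of the members called higher in mRNA was called, and G6pc, Ppp1r3c and Eno3 were the members called lower. An RPF call took a size above 1 and an unadjusted p below 0.05. Of the 28 members tested (Aldoc and Pck2 were under a mean RPKM of 1), none was called higher and these 3 were called lower. Of all 11190 genes tested, 1.58% were called higher and 7.86% lower. No gene reached an adjusted p under 0.05 (limma; smallest 0.108), although 1122 had an unadjusted p under 0.05, among them the same 3 members. Voom on the recovered reads called 2 of them, G6pc and Ppp1r3c. Both HB libraries lay above both HF libraries for Eno1 only and below them for 11 members, with 9.07% and 33.2% as the shares of all genes. The 11 include Eno3 and Gyg, with 0 and 1 reads in each HB library, which this depth does not resolve. The median log2 fold change was -0.37 over the members and -0.43 over all genes. With the libraries shifted to a common median, the calls of all genes went from 177 higher and 879 lower to 349 and 421, and no member was called. With RPKM rescaled to a common sum they were 41 and 2659, and 12 members were called lower. The RPKM sums before rescaling were 1.09e+06 and 1.25e+06 in HF and 1.74e+06 and 2.64e+06 in HB. The highest entries were short noncoding RNAs, Snord14d (159018) and Rnu6 (136889) in the HF libraries and Mir122 (418561 and 778452) in the HB libraries. This rescaling thus depends in part on such entries.

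In gluconeogenesis, both HB libraries were below both HF libraries for 4 of the 5 genes tested, and the median log2 fold change was -0.67, beside 33.2% and -0.43 for all genes. These directions move with the scaling given above. G6pc had an RPF RPKM of 177 and 224 in HF and 105 and 74.9 in HB. The HB libraries were clearly the lower ones (log2 fold change -1.16, SE 0.31, unadjusted p = 0.0148 and adjusted p = 0.493, limma). These values rested on 155 and 534 reads in HF and 61 and 24 in HB, and the summed reads gave an HB over HF ratio of 0.447 with a 95% counting interval of 0.352 to 0.560 (exact binomial), which leaves out the spread between libraries. The call was lost without either HF library and without the second HB library, where the log2 fold change was -0.91. Pck1 had 988 and 1037 in HF and 596 and 682 in HB, again without overlap (log2 fold change -0.67, SE 0.27, unadjusted p = 0.0562 and adjusted p = 0.505, limma). Pcx had 117 and 106 in HF and 67.9 and 95.7 in HB, with an unadjusted p = 0.19 (limma). Slc37a4 had 50.7 and 67.2 in HF and 48.5 and 27.0 in HB, where only the second HB library was well below the rest (unadjusted p = 0.163, limma). Fbp1, the gene with the largest mRNA change, had 190.0 and 320.0 in HF and 373 and 243 in HB, overlapping groups (log2 fold change 0.29, SE 0.40, unadjusted p = 0.5 and adjusted p = 0.8, limma).

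In the glycolysis genes the median was -0.033 and none was called. Ldha had an RPF RPKM of 319 and 481 in HF and 309 and 248 in HB, with both HB libraries below both HF libraries (log2 fold change -0.50, SE 0.33, unadjusted p = 0.186 and adjusted p = 0.637, limma). Pklr had 86.0 and 99.2 in HF and 135 and 68.3 in HB, overlapping groups. Gckr had 67.2 and 61.0 in HF and 23.0 and 52.0 in HB, again lower in both HB libraries. Pfkfb1 had 20.8 and 21.8 in HF and 44.7 and 8.11 in HB, so the HB libraries lay on either side of the HF libraries. Pfkl had 5.06 and 7.43 in HF and 13.4 and 6.92 in HB, and Pkm had higher but overlapping values in HB, 11.7 and 7.39 in HF and 22.4 and 11.6 in HB. Both rested on at most 19 reads in any library.

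Of the shared steps, the median was -0.40 and only Eno3 was called. Eno3 had 1 and 4 footprint reads in the HF libraries and 0 and 0 in the HB libraries. A count of 0 allows up to 3 reads, which equals 7.88 and 14.3 RPKM in the HB libraries, above the 1.74 and 2.56 RPKM measured in HF, so a difference of the Eno3 footprints was not detectable at this depth. Eno1 had 29.0 and 41.6 in HF and 70.1 and 43.7 in HB (log2 fold change 0.66, SE 0.40, unadjusted p = 0.159 and adjusted p = 0.617, limma). Tpi1 had 143 and 133 in HF and 136 and 119 in HB, a narrow span over all libraries (log2 fold change -0.12, SE 0.26, unadjusted p = 0.67 and adjusted p = 0.876, limma). Pgk1 had 153 and 217 in HF and 147 and 81.1 in HB, with the HB libraries below the HF libraries. For Gapdh the values were 328 and 588 in HF and 666 and 343 in HB, overlapping groups. Pgam1, Gpi1 and Aldoa also overlapped, with log2 fold changes of -0.39, -0.46 and -0.41.

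Among the 7 glycogen genes the footprint groups overlapped in 4, and the median was -0.18. Gbe1 had 50.0 and 98.8 in HF and 63.8 and 82.6 in HB (log2 fold change 0.044, SE 0.43, unadjusted p = 0.922 and adjusted p = 0.973, limma). Ugp2 had 102 and 184 in HF and 161 and 141 in HB, with the HB values inside the HF range. Pygl had 54.8 and 102 in HF and 97.9 and 62.5 in HB, again inside it. Gys2 had 59.2 and 98.7 in HF and 52.7 and 47.7 in HB, where the HB libraries were the lower ones. Ppp1r3b had 110.4 and 98.8 in HF and 79.8 and 106 in HB. Ppp1r3c was called lower, with 21.2 and 15.6 in HF and 1.45 and 7.9 in HB (log2 fold change -2.04, SE 0.77, unadjusted p = 0.0465 and adjusted p = 0.493, limma). It rested on 22 and 44 reads in HF and 1 and 3 in HB, a summed HB over HF ratio of 0.219 with a 95% counting interval of 0.0581 to 0.589, and the call was lost without either HF library and without the first HB library. Gyg, with 1 read in each HB library, was not resolved, its summed ratio of 0.557 having an interval of 0.0610 to 2.46. The transporter Slc2a2 had 159 and 212 in HF and 119.6 and 173 in HB, overlapping groups. In Khk, with 160.1 and 192 in HF and 324 and 133 in HB, the HB libraries lay on either side of the HF libraries.

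**Figure D2:**
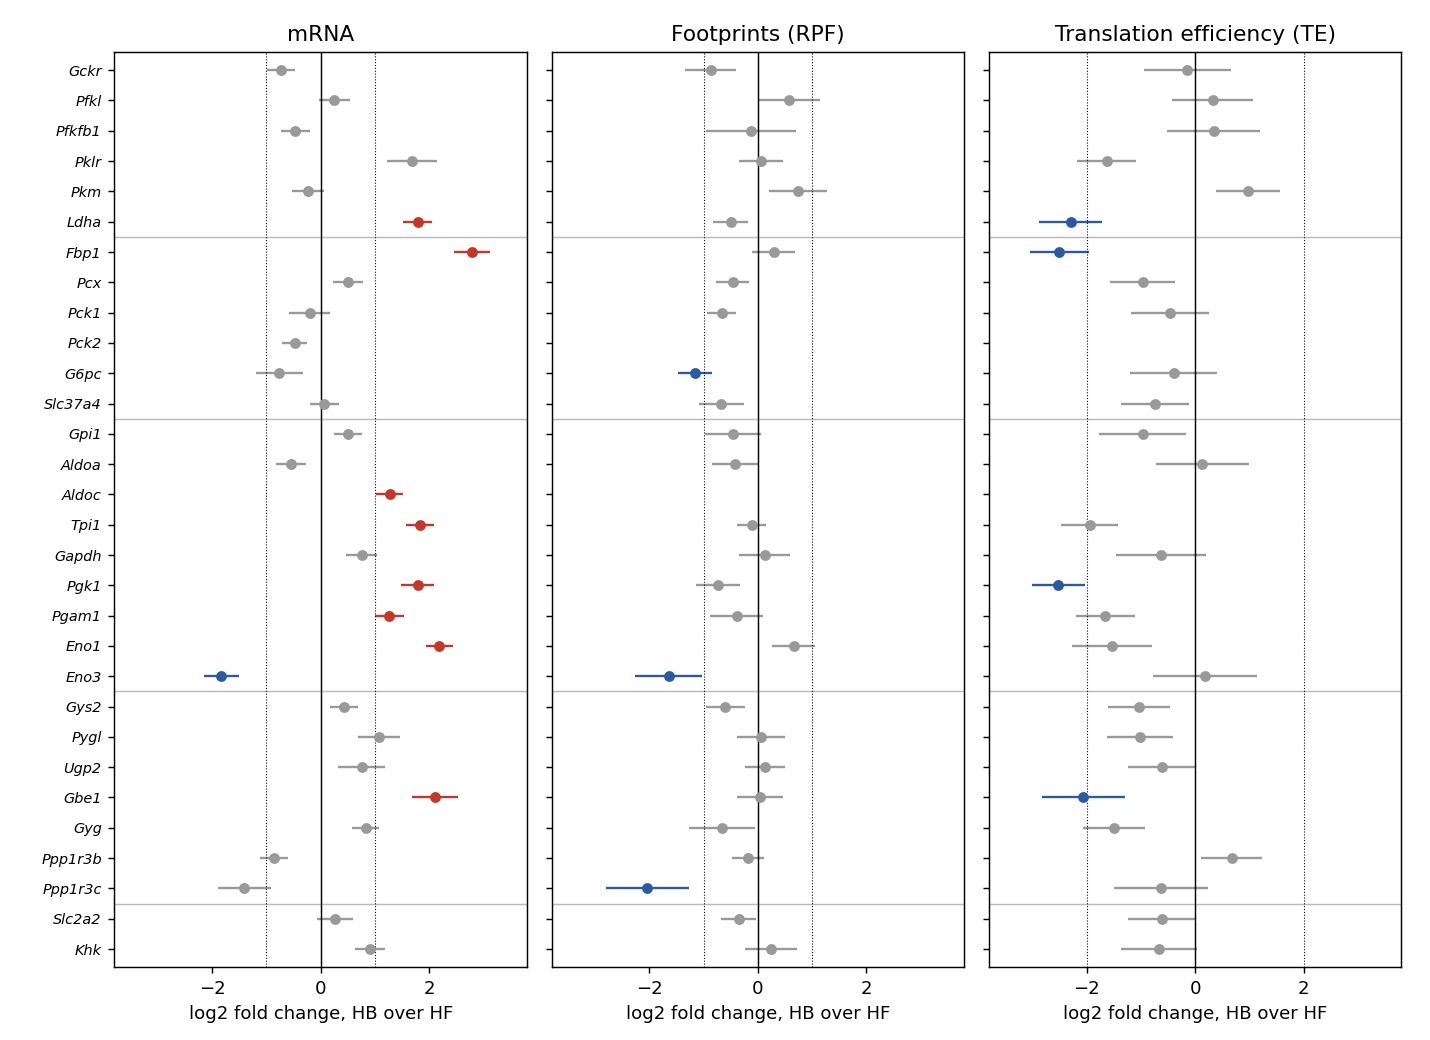
Log2 fold change of HB over HF for each member in mRNA, RPF and translation efficiency; bars are standard errors from limma, red marks genes called higher, blue those called lower and grey those not called, and dotted lines show the fold threshold (1, 1 and 2). In mRNA 8 members are red and 1 is blue, in RPF 3 are blue, and in translation efficiency 4 are blue.

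The ratio of footprints to mRNA, translation efficiency (TE), lay lower in both HB pairs than in both HF pairs for all 7 tested members called higher in mRNA, and 4 of them passed the call. The mRNA level is the divisor of TE, so this direction is largely set by choosing genes with higher mRNA. Of all 233 genes called higher in mRNA and tested in TE, 90.6% lay below in the same way and 32.6% were called lower in TE, and 7 of 7 is near that background. TE was taken between the RNA-seq and Ribo-seq libraries of the same group and number, called a pair here. The sources do not say that they share an animal, and their deviations correlated at -0.0024 in HF and -0.077 in HB. The fold change does not depend on this matching. A call took a size above 2 with the same limit on p. Of the 28 members tested, 4 were called lower (Pgk1, Fbp1, Ldha and Gbe1) and none higher, against 4.6% lower and 1.49% higher of the 9455 genes tested. The smallest adjusted p was 0.328 over all genes (limma), while 1154 genes in all and 8 members had an unadjusted p under 0.05. A single fit of both assays with an interaction term called the same 4 members without any matching. Both HB pairs were below both HF pairs in 16 members and above them in 2, beside 31.9% and 13.2% of all genes. The 16 include Eno3, which had no footprint reads in HB and so gives no direction, and Gyg, with 1 read in each HB library. With the libraries matched the other way round in HF, in HB or in both, 13 to 15 members were below and 1 to 2 above, and the 7 members called higher in mRNA were below in each case. The median log2 fold change was -0.70 over the members and -0.35 over all genes. Since mRNA divides the TE of every member, these shares and medians also carry the mRNA shift of the members. The medians of members and of all genes were 0.50 and -0.19 in mRNA, and -0.37 and -0.43 in RPF. Shifted to a common median, 259 genes of all were higher and 253 lower in place of 141 and 435, and 2 members remained called, Pgk1 and Fbp1. Rescaled to a common sum the counts were 42 and 1332, and 9 members were called lower. The short noncoding entries of Ribo-seq weigh on this rescaling in the same way.

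As plain ratios of RPKM, the TE of Pgk1 was 3.8 and 5.56 in HF and 0.799 and 0.772 in HB. Both HF pairs were several times both HB pairs (log2 fold change -2.52, SE 0.49, unadjusted p = 0.00206 and adjusted p = 0.328, limma), and the call held without each single library. The TE of Fbp1 was 2.35 and 3.48 in HF and 0.446 and 0.558 in HB (log2 fold change -2.50, SE 0.54, unadjusted p = 0.00345 and adjusted p = 0.328, limma). The TE of Ldha was 1.64 and 2.83 in HF and 0.469 and 0.409 in HB (log2 fold change -2.29, SE 0.58, unadjusted p = 0.00752 and adjusted p = 0.334, limma). For Gbe1, with the highest TE of the tested members in HF, it was 7.12 and 15.7 in HF and 1.16 and 4.52 in HB, groups that did not overlap but were wide (log2 fold change -2.06, SE 0.77, unadjusted p = 0.0361 and adjusted p = 0.386, limma). Without the second HF library the calls of Fbp1, Ldha and Gbe1 were lost (-2.22, -1.90 and -1.50), and the Gbe1 call was lost without the first HB library as well (-1.10).

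Tpi1 came just short of the fold threshold, with a TE of 1.97 and 1.96 in HF and 0.482 and 0.529 in HB, close within each group (log2 fold change -1.95, SE 0.53, unadjusted p = 0.0104 and adjusted p = 0.334, limma). Pgam1 had a TE of 2.32 and 2.29 in HF and 0.946 and 0.546 in HB (log2 fold change -1.65, SE 0.55, unadjusted p = 0.023 and adjusted p = 0.364, limma). The TE of Pklr was 2.82 and 2.0 in HF and 0.614 and 0.931 in HB (log2 fold change -1.63, SE 0.54, unadjusted p = 0.0234 and adjusted p = 0.364, limma). Eno1 had 0.52 and 0.683 in HF and 0.244 and 0.173 in HB (log2 fold change -1.53, SE 0.73, unadjusted p = 0.0803 and adjusted p = 0.461, limma), and with Eno1b added the log2 fold change was -1.76 (unadjusted p = 0.0192, limma). In footprints, 1 of the 7 tested members called higher in mRNA lay above, 4 overlapped and 2 lay below.

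In 10 members the TE groups overlapped, and none of these had been called in mRNA. Pck1 had a TE of 0.439 and 0.722 in HF and 0.515 and 0.324 in HB. The TE of G6pc, 0.582 and 2.12 in HF and 1.16 and 0.608 in HB, overlapped between the groups. The HB pairs lay below the HF pairs for Pcx, at 0.982 and 1.23 in HF and 0.447 and 0.699 in HB. They also did for Gys2, at 1.03 and 1.34 in HF and 0.561 and 0.578 in HB. The 2 members with both HB pairs above were Pkm and Ppp1r3b, of which Pkm overlapped with the HF libraries matched the other way round. Pkm had 0.857 and 0.913 in HF and 2.78 and 1.21 in HB, and Ppp1r3b had 0.832 and 0.826 in HF and 1.04 and 1.71 in HB (log2 fold change 0.68, SE 0.56, unadjusted p = 0.273 and adjusted p = 0.645, limma). The length behind the RPKM was the same in both assays for 19 of the 28 members where both lengths were recovered, so that a TE level is better compared between groups than between genes.

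**Figure D3:**
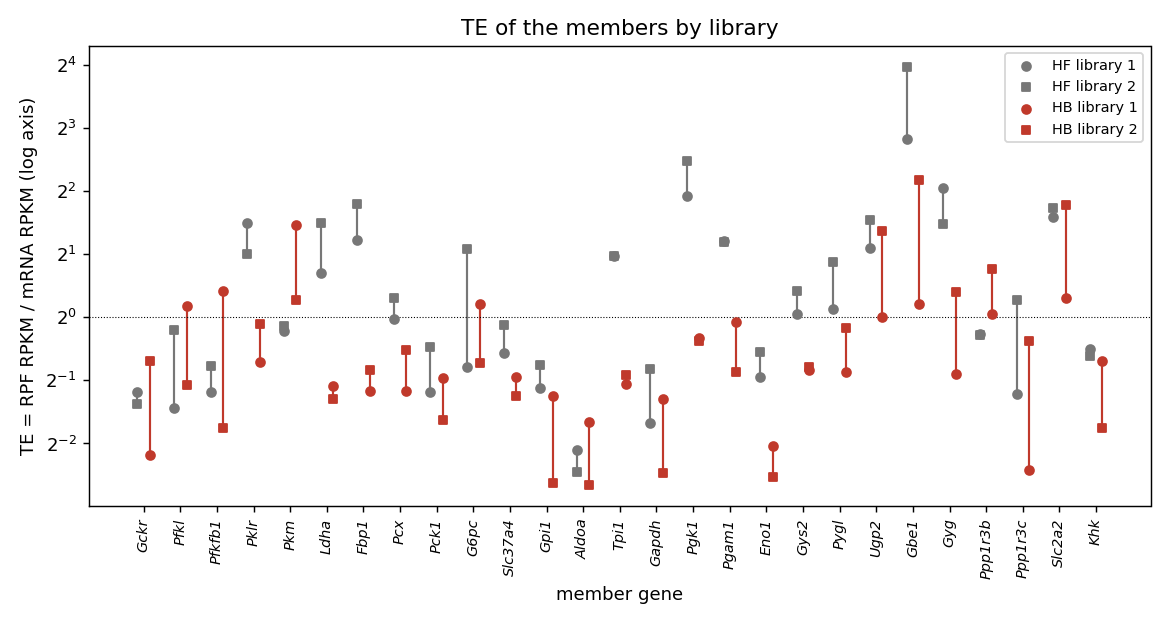
Translation efficiency (RPF over mRNA RPKM, log axis) of the tested members that had footprints in every library, with grey for HF and red for HB, circles for the first and squares for the second library of each number. The grey and red pairs are apart for Fbp1, Ldha, Pgk1, Tpi1 and Pgam1 and mixed for Gckr, Aldoa, Pck1 and G6pc.

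Pairs of enzymes were also compared within each library. The Fbp1 to Pfkl ratio in mRNA was 5.89 and 10.8 in HF and 70.9 and 30.0 in HB. In RPF it was 37.5 and 43.0 in HF and 27.9 and 35.1 in HB. The mRNA ratio was thus higher in both HB libraries, while the footprint ratio rested on 4 and 16 Pfkl reads in HF and 7 and 2 in HB, too few to read a direction. The Pck1 to Pklr ratio in mRNA was 73.8 and 29.0 in HF and 5.25 and 28.7 in HB, and in RPF 11.5 and 10.5 against 4.4 and 9.98. Here the first HB library alone was low in both assays. Within glycogen metabolism the Pygl to Gys2 ratio was 0.876 and 0.751 in HF mRNA and 1.9 and 0.85 in HB mRNA, and in RPF 0.926 and 1.04 against 1.86 and 1.31. The Gbe1 to Gys2 ratio was 0.123 and 0.085 in HF mRNA and 0.586 and 0.221 in HB mRNA, and in RPF 0.845 and 1.0 against 1.21 and 1.73.

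**Figure D4:**
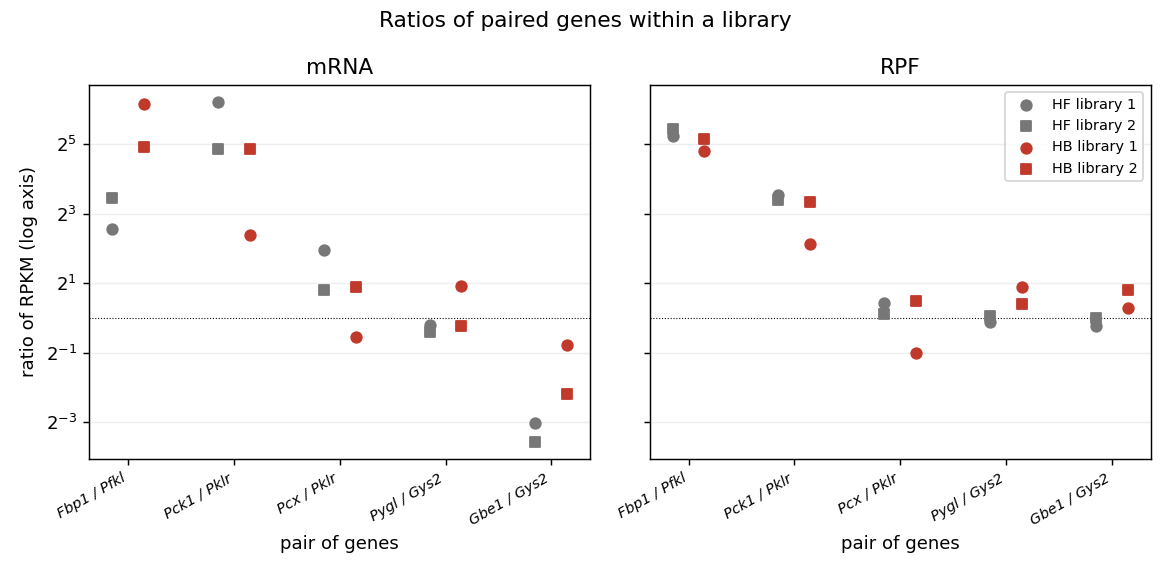
Ratios of RPKM between paired genes within each library (log axis) for mRNA (left) and RPF (right), with grey for HF and red for HB, circles for the first and squares for the second library. The Fbp1 to Pfkl ratio is higher in both HB libraries in mRNA, its RPF values rest on 16 Pfkl reads or fewer, and the Pck1 to Pklr and Pcx to Pklr ratios are low in the first HB library only.

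A further 100 genes of the same and adjoining pathways were counted for context. In mRNA, 7 of the 79 tested were called higher and 4 lower, where 2.3% and 6.56% of all genes were. Those higher were Eno1b, the malate dehydrogenases Mdh1 and Mdh2, the glycerol-3-phosphate dehydrogenase Gpd1, the aldose reductase Akr1b3, the galactokinase Galk1 and the phosphoglucomutase Pgm2. Mdh1 had 109 and 102 in HF and 389.8 and 299 in HB (log2 fold change 1.69, SE 0.27, adjusted p = 0.00526, limma). Those lower were G6pc3, a glucose-6-phosphatase subunit of most tissues, Mlxipl (ChREBP, the glucose-responsive activator of glycolytic and lipogenic genes), Crtc2, a coactivator of gluconeogenic genes, and Txnip, which restrains glucose uptake. Mlxipl had 434 and 504 in HF and 132 and 165 in HB, with both HB libraries far below (log2 fold change -1.66, SE 0.27, adjusted p = 0.00557, limma). Crtc2 had 47.5 and 32.9 in HF and 10.8 and 14.9 in HB. In Txnip, with 54.1 and 45.1 in HF and 19.6 and 21.3 in HB, the groups were also apart.

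In RPF, 8 of the 80 tested context genes were called lower and none higher: Pfkfb2, Pdha1, Pdk4, G6pc3, Gpd1, Pgm2l1, Ppp1r3e and Foxo1. The shares over all genes were 7.86% and 1.58%, so the number lower was near the background. Of the 8, G6pc3, Ppp1r3e and Pgm2l1 were at 0 RPKM in both HB libraries and Pdk4 had 1 and 0 reads there, so that, as for Eno3, a difference of these 4 was not resolved at this depth. Pdha1, the catalytic subunit of pyruvate dehydrogenase, had an RPF RPKM of 74.9 and 103 in HF and 35.4 and 19.7 in HB (log2 fold change -1.69, SE 0.41, unadjusted p = 0.00977 and adjusted p = 0.493, limma). Foxo1, a transcription factor that switches on gluconeogenic genes when insulin is low, had 31.6 and 26.4 in HF and 7.71 and 12.7 in HB (log2 fold change -1.45, SE 0.43, unadjusted p = 0.0206 and adjusted p = 0.493, limma). In TE, 5 of the 75 tested were called lower (Pdha1, Pdp2, Gpd1, Ppp1r3e and Ppp1r3g) and 1 higher (Hk3), near the 4.6% and 1.49% of all genes. Ppp1r3e had 0 footprint reads in both HB libraries, Ppp1r3g 0 and 1, Pdp2 9 and 0, and Hk3 0 and 6 in HF against 5 and 2 in HB, too few to read a direction. Gpd1 was called in all 3 measures, higher in mRNA and lower in RPF and TE. Its mRNA RPKM was 73.2 and 65.3 in HF and 163 and 183 in HB. Its RPF RPKM was 173 and 161 in HF and 104 and 35.3 in HB, with 75 and 14 reads in HB (log2 fold change -1.44, SE 0.56, unadjusted p = 0.0497 and adjusted p = 0.498, limma). Its TE was 2.37 and 2.47 in HF and 0.639 and 0.192 in HB (log2 fold change -2.75, SE 0.73, unadjusted p = 0.009 and adjusted p = 0.334, limma).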

How the data were processed

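Liver mRNA and ribosome-protected fragments were measured in 8 libraries, 2 per group and assay. For both assays the authors used FANSe2 (version not given in the sources used here) to map reads to mm10. They deposited the RPKM of every gene for each library separately, relative to that library's total. Whether footprints were counted over the coding part or the whole transcript is not given. The submitters' notes also name edgeR, which needs counts and was not used here. Entries with a repeated symbol (4 in RNA-seq) were left out.

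Whole reads were recovered from the steps between low RPKM values, for 98% of the RNA-seq and 96.84% of the Ribo-seq values above 0 (within 0.002 reads plus 1e-06 per read). They gave library totals, read numbers, intervals and the floor of 3 reads, which cover counting error only. Genes whose RPKM averaged 1 or more were fitted with limma 3.58.1 (R 4.3.3, lmFit and eBayes with trend, two-sided) on log2(RPKM + 1), with the group as factor and Benjamini-Hochberg adjustment over all genes tested. TE was tested on log2((RPF + 1)/(mRNA + 1)) and printed as the plain ratio. The mRNA and RPF fits were tested on simulated data with little spread between replicates beyond counting, and the TE fit was not simulated.

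The members, the role groups, the context genes and the tests were chosen with earlier results of these data known. All members were named, and the context genes were named where called. Positions, exon overlap and shared stretches (28 and 50 bases) come from GENCODE M21, and promoter windows from RefSeq. The alternatives tried were no filter, a filter at 5, a pseudocount of 0.1, other scalings, no trend, a replicate block, adjusted p, each library left out, an interaction model for TE and voom on recovered reads. A crossed block, the sum of Eno1 and Eno1b and other matchings of the libraries for TE were added after seeing the data.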

Additional observations from a re-analysis of the deposited data

How the results depend on the processing

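No called member changed direction under any alternative run. Of the alternative values of called members, 111 of 126 kept their call in mRNA, 22 of 41 in RPF and 43 of 56 in TE, and the rest fell short of a threshold. The mRNA call of Eno1 was kept under every alternative, those of Fbp1, Tpi1, Ldha, Pgk1, Gbe1 and Eno3 under all except the fit without a filter, and the TE call of Pgk1 under all except the adjusted p. The cause of these changes was not tested.

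For mRNA (8 members higher, 1 lower), the fit without a filter called 1 member higher and 0 lower, with 34 and 38 of all genes. Leaving out 1 library gave 6 (without the first HB library) to 11 (without the second) members higher and 1 to 3 lower. For RPF (0 higher, 3 lower), the number lower was 0 at an adjusted p under 0.05, 0 at a common median, 12 at a common sum and 1 without the variance trend. It ranged from 1 (without either HF library) to 7 (without the first HB library) when 1 library was left out, and 0 to 1 were higher. Pfkfb1 in RPF was at -1.29 without the first HB library and 1.04 without the second, past the call in both cases, and was not called with all libraries. Other members that were not called also changed sign, such as Khk in RPF (-0.39 to 0.88) and G6pc in TE (-1.33 to 0.53). For TE (4 lower), the number was 0 at an adjusted p, 2 at a common median, 9 at a common sum, and 1 (without the second HF library) to 5 with 1 library left out.

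Library numbers did not pair the HF and HB samples: the same-numbered deviations correlated at -0.104 in mRNA, -0.0138 in RPF and 0.0127 in TE. With the replicate block, 9 members were higher and 2 lower in mRNA, with 498 and 1229 of all genes, and 2 were lower in RPF. The crossed replicate block gave 9 and 2 members in mRNA, with 474 and 1303 of all genes. Over all genes, the calls with 1 library left out ranged in mRNA from 166 to 502 higher (246 with all libraries), in RPF from 57 to 524 higher and 722 to 2609 lower (177 and 879), and in TE from 63 to 455 higher and 123 to 1266 lower (141 and 435). Voom gave 440 higher in RPF, and the filter at 5 gave 311 lower in RPF and 71 higher and 179 lower in TE. Depth limits the Ribo-seq values, where the counting intervals of Eno3 and Gyg span a ratio of 1. Ppp1r3c has an interval below 1 but rests on 4 reads in HB.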
